A study of Mus musculus with 2 samples.

Results

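Accessible chromatin was examined at 10 genes that encode co-stimulatory and adhesion molecules of the macrophage surface, namely Cd40, Cd80, Cd86, Icosl, Cd274, Pdcd1lg2, Cd83, Cd69, Cd44 and Icam1. A peak was counted for one of these genes when that gene had the protein-coding RefSeq gene end nearest to the peak summit, at most 100 kb away. By this rule 33 of 37725 peaks from R848-treated cells and 14 of 77060 peaks from untreated cells belonged to the 10 genes, which were 10 of 21887 protein-coding genes. The peaks came from ATAC-seq, which marks open chromatin by where Tn5 transposase can cut and tag the DNA. The R848 group was 1 library of wild-type mouse bone marrow-derived macrophages grown with 20 ng/ml M-CSF and given R848 (resiquimod, a small-molecule agonist of the endosomal receptor TLR7) at 100 ng/ml for 2 h. The untreated group was 1 library of the same wild-type cells, grown with the same M-CSF and given no R848 (0 h). The farthest peak counted lay 61534 bp from a gene end of Cd83 with 11 tags in the R848 list, and the nearest one left out lay 118985 bp away, also nearest to Cd83, with 7 tags.

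These molecules decide how a macrophage is read by a T cell. CD80 and CD86 bind CD28 and CTLA4 on T cells, the ICOS ligand binds ICOS, and the ligands PD-L1 and PD-L2, encoded by Cd274 and Pdcd1lg2, bind the inhibitory receptor PD-1. CD40 receives the signal of CD40 ligand from helper T cells, while ICAM1 holds the contact through leukocyte integrins and CD44 binds hyaluronan in the matrix. Several of these genes are known targets of NF-kB in macrophages and dendritic cells stimulated through Toll-like receptors.

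With 1 library a group there was no replicate check, and no p-value was computed. A peak is called shared when a peak of the other list overlaps it by at least 1 bp, and R848-only or untreated-only otherwise. The number of tags at a summit was recovered from the authors' fold and p columns, and each is given with its exact 95% Poisson interval, which covers counting error only. The genome-wide background recovered in the same way was 1.36 tags in the R848 library and 0.968 tags in the untreated library, a ratio of 1.40. At that background the smallest pileup called was 5 tags in the R848 list and 4 tags in the untreated list, and 48.2% of R848 and 36.5% of untreated peaks had a q above 0.05. A site absent from a list may therefore hold tags below that limit. A change in the share of cells with an open site and a change in openness per cell cannot be told apart in such bulk libraries. As a check of the cell label, all 10 macrophage markers examined, among them Csf1r, Spi1 and Cd68, had a peak in both lists, as did 52.4% of all protein-coding genes. Of 6 T and NK cell markers, none had an R848 peak and 1, Cd4, had an untreated peak. Dendritic cell markers held 9 R848 and 6 untreated peaks over 5 genes (none at Zbtb46 or Clec9a), with an R848 peak at 3 genes. Stromal and endothelial markers held 14 and 8 over 4 genes, each of which had an R848 peak, as did 63.1% of all genes. B cell markers held 3 and 2 over 4 genes, with an R848 peak at 3 genes (Cd79a, Ms4a1 and Pax5). Neutrophil markers held 3 and 4 over 4 genes (none at Elane), with an R848 peak at 2 genes. The stromal and endothelial markers had 3.25 R848-only peaks per gene, against 0.885 over all protein-coding genes. The part of these cell types in the results below was not tested.

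Sequence around the annotated start was at hand for 6 of the 10 genes (Cd44, Icam1, Icosl, Cd80, Cd274 and Pdcd1lg2), from RefSeq on the GRCm38.p6 build, the assembly that mm10 names. Each window ran from 250 bases before the start to 50 after it. An R848-only peak overlapped the window of 4 of the 6 genes, and no untreated peak overlapped any of the 6. Over the 21263 windows of protein-coding genes, 34.4% were overlapped by an R848 peak, 11% by an R848-only peak and 24.9% by an untreated peak. The 4 windows with a peak are shown because there an R848-only peak overlaps the window around an annotated start. They are written 5′ to 3′ along the gene, and capitals mark the bases that the R848-only peak covers.
Cd274, chr19:29367188-29367487, plus strand: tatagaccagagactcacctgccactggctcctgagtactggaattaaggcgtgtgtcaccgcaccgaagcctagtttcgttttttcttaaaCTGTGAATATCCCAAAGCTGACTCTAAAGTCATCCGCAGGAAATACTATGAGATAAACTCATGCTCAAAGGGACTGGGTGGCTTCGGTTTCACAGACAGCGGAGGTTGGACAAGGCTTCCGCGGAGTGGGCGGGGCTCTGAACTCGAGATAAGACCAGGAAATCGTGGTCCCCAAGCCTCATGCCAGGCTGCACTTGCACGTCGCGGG
Cd44, chr2:102901616-102901915, minus strand: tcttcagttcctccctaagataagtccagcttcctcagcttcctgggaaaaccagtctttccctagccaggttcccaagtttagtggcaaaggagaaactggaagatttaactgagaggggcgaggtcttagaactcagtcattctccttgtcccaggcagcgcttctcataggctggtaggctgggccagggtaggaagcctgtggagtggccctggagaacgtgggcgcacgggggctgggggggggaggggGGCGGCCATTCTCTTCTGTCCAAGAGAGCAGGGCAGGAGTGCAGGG
Cd80, chr16:38458683-38458982, plus strand: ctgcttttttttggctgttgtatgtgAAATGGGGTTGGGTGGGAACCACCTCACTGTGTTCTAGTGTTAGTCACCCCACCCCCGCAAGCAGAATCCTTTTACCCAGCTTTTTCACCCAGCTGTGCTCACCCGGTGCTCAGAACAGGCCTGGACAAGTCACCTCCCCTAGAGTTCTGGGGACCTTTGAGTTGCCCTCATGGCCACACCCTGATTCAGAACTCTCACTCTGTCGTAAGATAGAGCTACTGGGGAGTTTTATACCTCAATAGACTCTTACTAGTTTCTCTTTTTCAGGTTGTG
Icosl, chr10:78069118-78069417, plus strand: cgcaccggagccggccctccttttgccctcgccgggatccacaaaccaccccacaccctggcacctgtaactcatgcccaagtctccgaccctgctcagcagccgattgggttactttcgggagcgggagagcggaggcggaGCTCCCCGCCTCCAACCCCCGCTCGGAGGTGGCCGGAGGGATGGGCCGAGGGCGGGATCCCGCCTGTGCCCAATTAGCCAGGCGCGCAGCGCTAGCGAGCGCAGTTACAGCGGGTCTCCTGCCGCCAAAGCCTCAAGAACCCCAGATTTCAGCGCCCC
The peak covered 208 bases of the Cd274 window, 46 of the Cd44 window, 274 of the Cd80 window and 158 of the Icosl window. In the Cd44 window these were the last bases of the window, after the start, whereas in the Cd80 and Cd274 windows they reached from well before the start to the window's end.

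Short motifs were looked up on both strands of the 6 windows. The Cd80 window held TGATTCA, a match to the AP-1 motif TGANTCA, beginning 42 bases before the start and under the R848-only peak, and 6.99% of all windows held that motif. An NF-kB motif, GGG and CC with any 5 bases between them, was in 5 of the 6 windows and in 57% of all windows, so its presence says little. Wholly under the peaks lay GGGAACCACC and GGCCACACCC at Cd80, and GGGATGGGCC at Icosl. The window of Cd274 held no match to it. The interferon response motif, GAAA and GAAA with any 2 bases between them and found in 3.35% of all windows, and the ETS motif GGAAGT, found in 24.8%, were in none of the 6. GAGGAA, a core shared by PU.1 and other ETS factors, was in the Cd44 and Pdcd1lg2 windows and in 27.4% of all, and the STAT motif TTNCNNNAA was in the Icam1 and Cd274 windows and in 33.5% of all. Neither the GAGGAA nor the STAT matches lay under an R848 peak. These matches describe the letters and are not binding sites.

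Across the 10 genes the R848 list held 27 R848-only and 6 shared peaks, and the untreated list held 8 untreated-only and 6 shared peaks. Each of the 10 genes had at least 1 R848-only peak, against 47.2% of all protein-coding genes. The genes had 2.70 R848-only peaks each on average, against 0.885 over all protein-coding genes, and the medians were 3.50 and 0. The marker lists above had means of 3.25 (stromal and endothelial), 2 (macrophage), 1.4 (dendritic), 0.75 (B cell), 0.5 (neutrophil) and 0 (T and NK cell). A mean above that of all genes was thus not particular to the 10 genes. Cd86, Icosl, Pdcd1lg2, Cd69 and Cd44 had 4 R848-only peaks each, so that 5 of the 10 genes had at least 4, as did 4.95% of all genes. In that order these genes span 97.2, 10.2, 62, 8.05 and 90.5 kb. Neither these counts nor those of all genes were adjusted for gene length or the distance between genes. With peaks limited to a −log10 q of at least 2, or to gene ends within 20 kb, none of the 10 genes had more than 3. The 4.95% holds without these limits, and no share of all genes under them is given for comparison. An untreated-only peak was found at 5 of the 10 genes, against 56.9% of all, with means of 0.80 and 1.74 and medians of 0.50 and 1. All 10 genes had more R848-only than untreated-only peaks, and 20.8% of all genes did. With both lists limited to peaks of a −log10 q of at least 2 this held for 7 of the 10, at 5 or more for 2, and with gene ends within 20 kb for 9. The 20.8% does not apply under these limits. No share of all genes under them is given, so whether the 7, 2 and 9 exceed it was not tested. Without these limits none of the 10 had fewer, which was the case for 42% of all genes. Cd40, Icosl, Cd274 and Icam1 had no assigned untreated peak at all, as did 30.5% of all genes. The genes were chosen with earlier results of these data known, so these counts are not independent evidence of a direction.

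**Figure D1:**
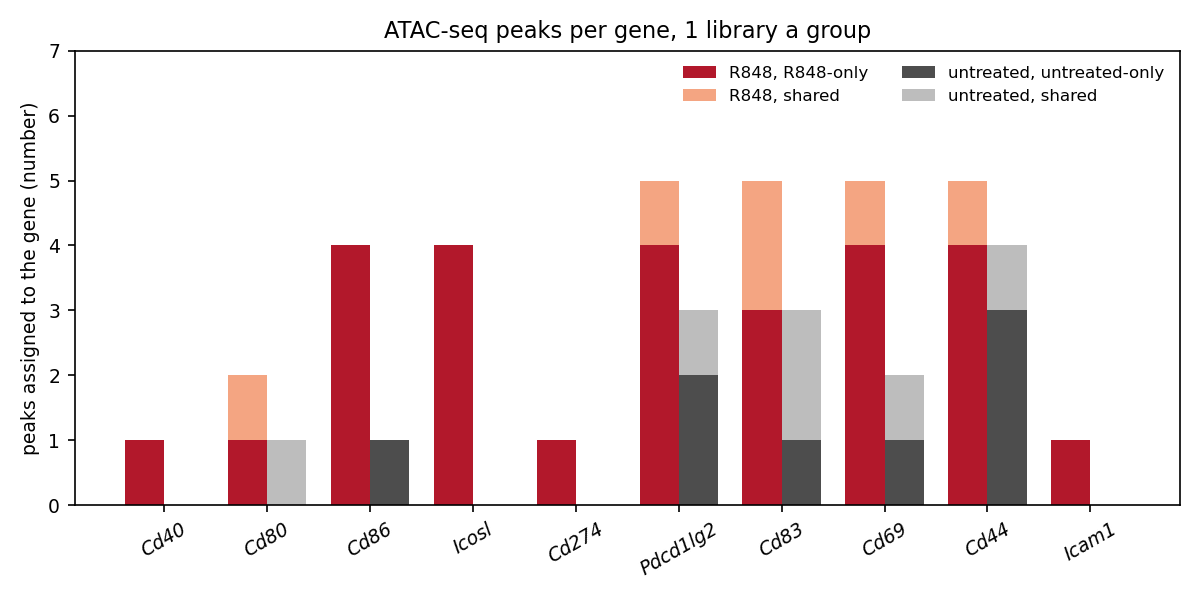
Number of ATAC-seq peaks assigned to each gene (y axis) in the R848 library (red bars) and the untreated library (grey bars), split into peaks of 1 list (dark) and shared peaks (light). The R848 bar is the higher at each of the 10 genes, and Cd40, Icosl, Cd274 and Icam1 have no untreated bar.

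**Figure D2:**
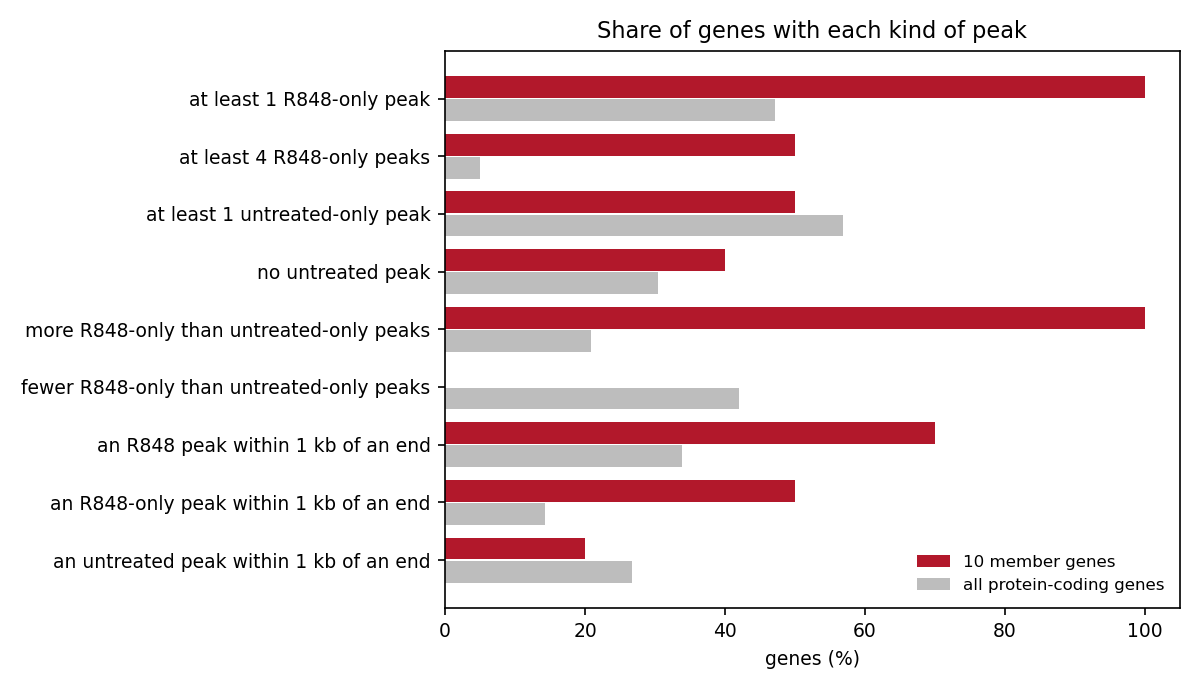
Percent of genes (x axis) with each kind of peak, among the 10 surface molecule genes (red) and all 21887 protein-coding genes (grey). All 10 genes had more R848-only than untreated-only peaks, against 20.8% of all genes, while untreated-only peaks were found at 5 of 10, against 56.9%.

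Cd40 encodes the receptor through which helper T cells activate macrophages. The only peak assigned to it in either list was an R848-only peak on chromosome 2 from 165055286 to 165055602, with its summit 187 bp outside the lower-coordinate end of the gene. It held 11 tags (5.49 to 19.7) and a fold of 5.09, which ranked at the percentile of 82.7 in the R848 list. This made it the strongest peak within 1 kb of an end of any of the 10 genes, level in tags with the shared peak at the end of Cd83. By the nearest-end rule, other peaks near Cd40 were given to its neighbour Ncoa5. A shared site with 10 tags in the R848 list and 8 in the untreated list had its R848 summit 20688 bp from Cd40. An R848-only peak of 8 tags lay 12286 bp from it. The gene table gives no exons, so peaks inside a gene are not placed in an exon or an intron here.

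Cd80 and Cd86 encode the B7 ligands of CD28. At Cd80 a shared peak lay over the lower-coordinate end of the gene, 1494 bp before the annotated start, with 8 tags (3.45 to 15.8) in the R848 list and 6 tags (2.2 to 13.1) in the untreated list. The other R848 peak, on chromosome 16 from 38458709 to 38459069, had its summit 43 bp before the annotated start and 7 tags (2.81 to 14.4), and it is the R848-only peak of the Cd80 window above. Cd80 lies on the plus strand, so the shared site was at the 5′ end of its gene span. Cd80 thus had a site at that end called in both lists and a site over the annotated start called in the R848 list alone. The R848-only peak and the untreated peak of the shared site both had a q above 0.05. The R848-only peak was lost when a −log10 q of 2 or more was required. With the untreated list reduced to the length of the R848 list, the R848 peak of the shared site became R848-only.

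At Cd86 all 4 R848 peaks were R848-only, all lay inside the 97.2 kb gene, and none was within 1 kb of an end. They held 8, 10, 9 and 7 tags in order of position, and the strongest, from 36626942 to 36627158 on chromosome 16, had a fold of 4.66 and an interval of 4.80 to 18.4 tags. The single untreated peak of Cd86, with 7 tags (2.81 to 14.4), lay 1291 bp from that peak without touching it. That gap is wider than either peak, since these measured 217 bp in the R848 list and 202 bp in the untreated list.

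Icosl, which encodes the ligand of ICOS on activated T cells, had 4 R848 peaks and no untreated peak. The peak over the start, on chromosome 10 from 78069260 to 78069512, had its summit 90 bp after the start and held 8 tags (3.45 to 15.8). A peak 551 bp after the start, one 613 bp beyond the other gene end and one 26.1 kb beyond it held 7 tags each (2.81 to 14.4). Icosl was thus the gene with the most R848 peaks within 1 kb of its ends, with 3. None of these 4 peaks reached a fold above 3.66, and 1 of them, the peak over the start, had a q at or under 0.05.

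Cd274 and Pdcd1lg2, which encode the PD-1 ligands, are neighbours on chromosome 19. The peak assigned to Cd274 was an R848-only peak of 6 tags (2.2 to 13.1) inside the gene, 3192 bp from its higher-coordinate end, with a q above 0.05. The R848-only peak over the Cd274 start, from 29367280 to 29367581, was given to the neighbour Plgrkt by the nearest-end rule, since an end of Plgrkt lay 161 bp from the summit. That peak held 8 tags (3.45 to 15.8), its fold was 3.60 and its summit lay 15 bp after the annotated start of Cd274. No untreated peak lay within 50 kb of the Cd274 gene.

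At Pdcd1lg2 the R848 list held 5 peaks, of which 4 were R848-only, and the untreated list held 3, of which 2 were untreated-only. The R848-only peaks inside the gene lay 8937, 22818 and 30785 bp after the annotated start and held 8, 6 and 6 tags, and the fourth, 12.7 kb beyond the other end, held 8. The untreated-only peaks held 5 and 6 tags and lay 7694 bp inside and 4366 bp outside the higher-coordinate end. The nearest R848 peaks were 20162 and 8053 bp from them, wider gaps than at any other untreated-only peak of the 10 genes. The shared peak, 13.8 kb beyond that end, held 10 tags (4.80 to 18.4) in the R848 list and 6 tags (2.2 to 13.1) in the untreated list. No peak of either list overlapped the window at the Pdcd1lg2 start.

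Cd83 encodes a surface protein that stabilises CD86 and MHC class II molecules by opposing their ubiquitination. The peak at its lower-coordinate end was shared, with 11 tags (5.49 to 19.7) over 514 bp in the R848 list and 6 tags (2.2 to 13.1) over 200 bp in the untreated list, and these overlapped by 80 bp with summits 132 bp apart. At an overlap of at least 50% of the shorter peak they no longer counted as shared. The 3 R848-only peaks lay 9724 and 7538 bp outside that end and 4148 bp inside the gene, with 9, 6 and 10 tags. An untreated-only peak of 7 tags lay 15.9 kb outside the same end, 5851 bp from the nearest R848 peak. The distal shared peak 61.5 kb away held 11 tags in the R848 list and 7 in the untreated list.

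Cd69, an early activation marker of the C-type lectin family, had 5 R848 peaks and 2 untreated peaks. An R848-only peak of 8 tags (3.45 to 15.8) lay 17 bp inside the higher-coordinate end of the gene, on chromosome 6 from 129275232 to 129275431. A stronger one of 12 tags (6.20 to 21.0), from 129284376 to 129284837, lay 9265 bp outside that end. On the other side of the gene, between 29206 and 36828 bp from its lower-coordinate end, 3 R848 peaks of 10, 15 and 7 tags stood together with the 2 untreated peaks of 5 and 8 tags. The peak of 15 tags (8.40 to 24.7) was shared with the untreated peak of 5 tags (1.62 to 11.7), and the untreated peak of 8 tags overlapped no R848 peak. The local background there was 1.74 to 2.66 tags at the R848 peaks, above the genome-wide 1.36.

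Cd44, which encodes the hyaluronan receptor, carried the strongest peaks of the set in both lists. The shared peak 42.6 kb before the start, on chromosome 2 from 102944065 to 102944452, held 17 tags (9.90 to 27.2) in the R848 list, where its fold was 7.20, and 11 tags (5.49 to 19.7) in the untreated list, where its fold was 6.10. The strongest R848-only peak of the 10 genes, from 102829264 to 102829603, lay inside Cd44, 72.2 kb after the start, with 14 tags (7.65 to 23.5) and a fold of 6.36. An R848-only peak at the start held 9 tags (4.12 to 17.1), its summit 113 bp after the start, and further ones held 6 tags inside the gene and 8 tags upstream. The untreated list had 3 untreated-only peaks at Cd44, the most of any of the 10 genes, with 6, 8 and 6 tags. The one of 8 tags lay 1943 bp before the start, where the R848 list had no peak.

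Icam1, whose protein is a ligand of the leukocyte integrins LFA-1 and Mac-1, had 1 R848-only peak and no untreated peak. It lay on chromosome 9 from 21015258 to 21015527, its summit 538 bp before the annotated start, and held 10 tags (4.80 to 18.4) at a local background of 1.84 tags, with a fold of 3.87. It ended upstream of the 300-base window at the Icam1 start, so that window held no peak.

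**Figure D3:**
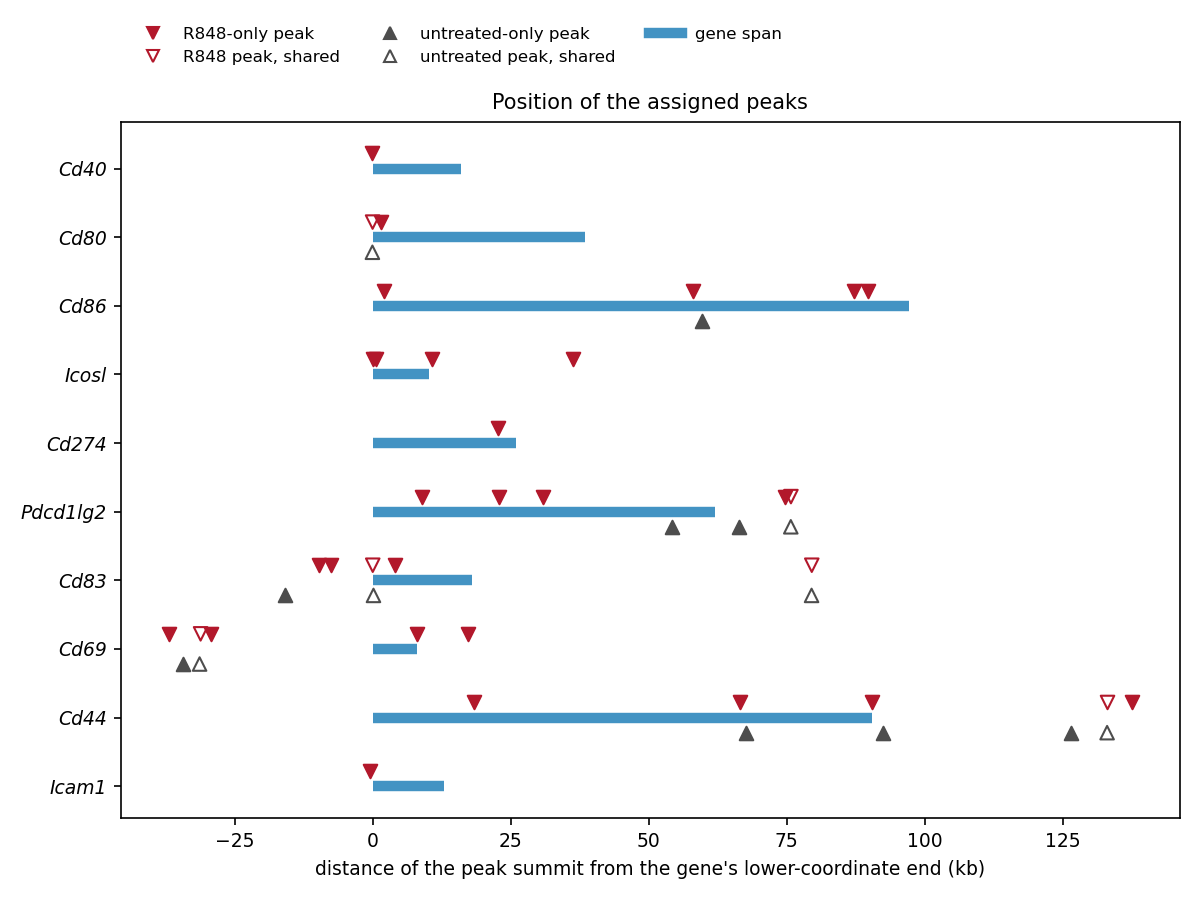
Distance of each peak summit from the lower-coordinate end of its gene in kb (x axis), with R848 peaks above and untreated peaks below the blue gene span, filled where in 1 list and open where shared. R848-only peaks lie inside Cd86, Pdcd1lg2 and Cd44 and at ends of Cd40, Icosl, Cd69, Cd44 and Icam1, while the untreated peaks within 1 kb of an end are the shared ones of Cd80 and Cd83.

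By position, 7 of the 10 genes had an R848 peak within 1 kb of a gene end, against 33.8% of all genes, and 5 of them (Cd40, Icosl, Cd69, Cd44 and Icam1) had an R848-only peak there, against 14.3%. Cd80 and Cd83 were the 2 genes with an untreated peak within 1 kb, and 26.7% of all genes had one. Cd86, Cd274 and Pdcd1lg2 had no assigned peak within 1 kb in either list. Of the peaks themselves, 27.3% of 33 R848 peaks lay within 1 kb of an end (95% exact interval 13.3 to 45.5%), close to the 27.6% of all assigned R848 peaks. For untreated peaks the shares were 14.3% of 14 (1.78 to 42.8%) and 13.1%. Inside the gene span lay 18 of 33 R848 peaks (54.5%, 36.4 to 71.9%) and 4 of 14 untreated peaks (28.6%, 8.39 to 58.1%), against 46.6% and 36.8% of all assigned peaks of each list. These intervals overlap and include the general values.

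Of the 33 R848 peaks, 18.2% overlapped an untreated peak (exact interval 6.98 to 35.5%), against 33.1% of the 28951 assigned R848 peaks, of which 66.9% were R848-only. Among assigned R848 peaks with 6 to 17 tags, the range of the 10 genes, 26.8% were shared. Of the 14 untreated peaks, 42.9% were shared (17.7 to 71.1%), against 20.2% of the 47840 assigned untreated peaks, of which 79.8% were untreated-only. The intervals of both shares include the general values, so with 33 and 14 peaks a difference could not be told from counting error. R848 peaks made up 70.2% of the 47 peaks at the 10 genes (55.1 to 82.7%) and 37.7% of all assigned peaks of both lists. That interval treats peaks as independent, though several share a gene, and covers counting error only. The genes were chosen with earlier results of these data known, so this share is not independent evidence of a direction.

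The peaks were of ordinary strength. The R848 peaks held 6 to 17 tags with a median of 8, the same as the median of 8 over the R848 list, and the untreated peaks held 5 to 11 tags with a median of 6, against 7 over the untreated list. R848-only peaks held 6 to 14 tags, and 11 of the 27 held 6 or 7. Divided by the background ratio of 1.40, they correspond to 4.27 to 9.97 tags, with 16 of the 27 at 5 or more. The smallest untreated pileup called was 4, a limit that holds only at the genome-wide background. These peaks were picked for having been called in the R848 list, and counting error can take such small counts below the limit. Whether an equally open site would have been called in the untreated list was not tested. A q at or under 0.05 was reached by 21 of the 33 R848 peaks, 15 of them R848-only, and by 11 of the 14 untreated peaks. These are 63.6% (45.1 to 79.6%) and 78.6% (49.2 to 95.3%), and the intervals include the 56.8% and 64.4% of all assigned peaks of each list.

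**Figure D4:**
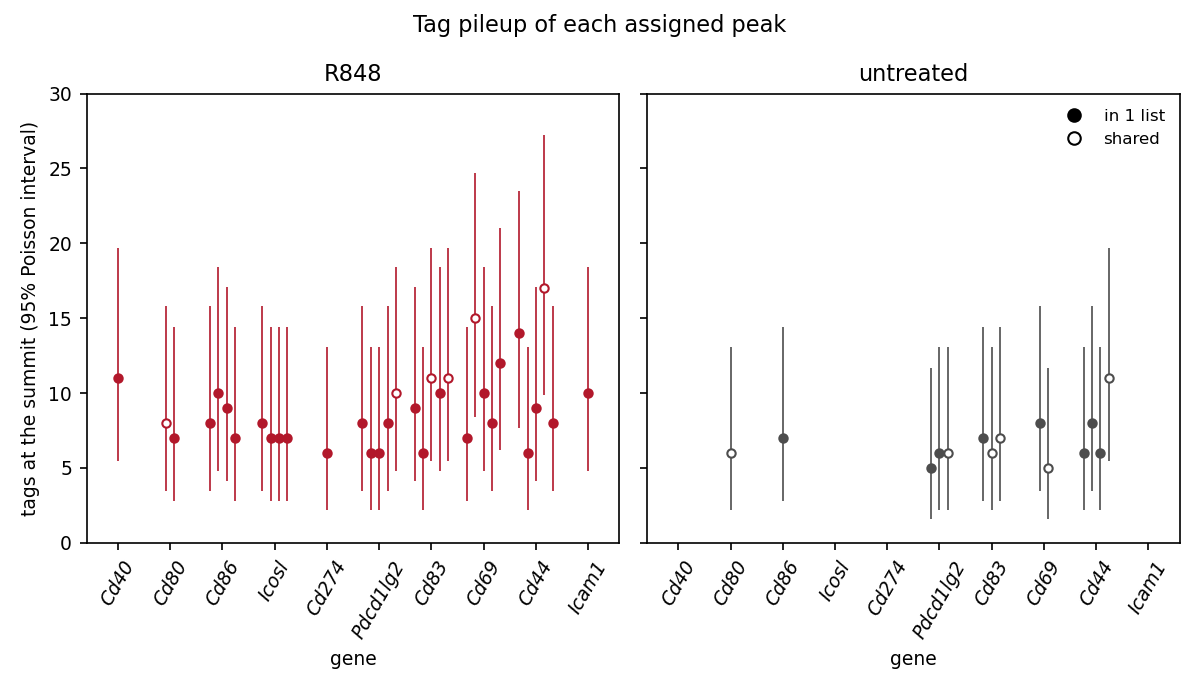
Tags at the summit of each assigned peak (y axis) with exact 95% Poisson intervals (bars), by gene (x axis), in the R848 library (left) and the untreated library (right), with open points for shared peaks. R848 points lie between 6 and 17 tags and untreated points between 5 and 11, and the intervals overlap widely.

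At the 6 shared sites the R848 summit held more tags than the untreated summit each time. The ratio was 1.33 at Cd80, 1.55 and 1.57 at the distal sites of Cd44 and Cd83 and 1.67 at Pdcd1lg2. It was 1.83 at the Cd83 end and 3.0 at Cd69. The median of the 6 ratios was 1.62, beside a median of 1.33 (quartiles 0.857 and 2.00) over 11817 shared pairs in the genome and a background ratio of 1.40. At Cd69 the summits of both lists lay 181 bp apart and the peaks overlapped by 114 bp, so its ratio compares different positions. At the other sites the summits lay 25 to 132 bp apart. The local background (R848, then untreated) was 2.66 and 1 tags at Cd69, 1.76 and 0.968 at the Cd83 end and 1.9 and 0.968 at Pdcd1lg2. It was 1.36 and 0.968 at the distal Cd83 site, 1.5 and 0.968 at the distal Cd44 site and 1.46 and 1.22 at Cd80. The folds at Cd69, each against its own background, were 4.37 and 3. The Poisson intervals of both libraries overlapped at each of the 6 sites, Cd69 included. Overlap of separate intervals is not a test of a difference, and a difference in strength at a single shared site was not tested.

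Other genes of T cell contact were counted in the same way, beside the 47.2% of all protein-coding genes with an R848-only peak and the means of 0.885 R848-only and 1.74 untreated-only peaks per gene. Of 21 other co-stimulatory and checkpoint ligands and receptors, 19 had an R848-only peak, with 43 R848-only and 29 untreated-only peaks in all and a median of 2 R848-only peaks per gene. Cd47, whose protein gives the signal that inhibits phagocytosis, had 8 R848-only peaks beside 2 untreated-only ones, and the gene of its receptor, Sirpa, had 5 and 1. Cd70 and Lgals9 had no R848-only peak, and Vtcn1 had 2 beside 8 untreated-only peaks. The counter-receptors of these ligands on lymphocytes had 10 R848-only and 20 untreated-only peaks over 10 genes, with an R848-only peak at 6, a share near that of all genes. Among these, Cd2 had 3 and 5, Cd28 had 1 and 5, Pdcd1 had 2 and 5 and Btla had 0 and 4, and Cd40lg, Tnfrsf4 and Tnfrsf9 had no peak in either list.

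Of 19 other adhesion genes, 16 had an R848-only peak, against 47.2% of all genes, with 33 R848-only and 43 untreated-only peaks and a median of 2 R848-only peaks per gene. Cd9, a tetraspanin gene, had 5 and 3, Alcam had 4 and 12, and Sele, the gene of E-selectin, had 0 and 1. Icam2 and Spn had no peak in either list. Among 10 genes that carry the signal of CD40, 6 had an R848-only peak, again near the 47.2% of all genes, with 13 R848-only and 6 untreated-only peaks. Each of the 10 had an R848 peak, as did 63.1% of all genes. Traf1, an NF-kB-inducible adaptor, had the most R848-only peaks, with 4 beside 1 untreated-only peak. Traf2, Relb, Birc2 and Birc3 had no R848-only peak and a single R848 peak each, which was shared.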

How the data were processed

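ATAC-seq peak lists of 1 R848 and 1 untreated library were used as deposited. The labels' protocols describe lysis of the cells, Tn5 tagmentation from a kit and 15 cycles of PCR. Per the submitters' processing notes, bcl2fastq 2.19, Bowtie2 2.2.6 and MACS2 2.2.7.1 were used on mm10. Their settings, the handling of duplicates and any shift of insertion sites are not given in the sources used here. Each deposited fold ratio compares the summit with the background of its own library and ranks peaks within a list. The deposited −log10 p and −log10 q are those of the summit, and the lowest −log10 p lay just above that of a p-value of 0.01. The deposited score is 10 times the −log10 p, rounded down, in 99.8% of R848 and 99.9% of untreated peaks, and was not used further.

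The fold is (pileup + 1)/(background + 1) and p a Poisson tail, so both were solved for a whole-number pileup, to within 0.1% of the given −log10 p, which succeeded for 99.9% of peaks in each list. Read totals are not given in the sources used here, so depth is known only through this background. Overlaps and nearest gene ends were computed with Python 3.11.15, numpy 2.4.6, pandas 2.3.3 and scipy 1.17.1, and tested on simulated data against bedtools 2.31.1 and a direct search. Figures were drawn with matplotlib 3.10.9. Gene spans came from the RefSeq table of GRCm38.p6. Strand and start were taken from the RefSeq promoter table where it held the gene. All 10 genes and all their peaks are reported, and genes of the other lists are named where they had the most or no R848-only peaks, with Sirpa, Vtcn1, Cd28, Pdcd1 and Alcam added after the values were seen. Hhla2 is not in the gene table, and 1 further gene of the adhesion list is not reported here and is outside its counts. The genes and lists were chosen with earlier results of these data known. Alternatives changed the q limit, the overlap, the list length and the gene assignment.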

Additional observations from a re-analysis of the deposited data

How the results depend on the processing

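The R848-only count of the 10 genes was 27, the untreated-only count 8 and the shared share of their R848 peaks 18.2%. Keeping peaks of a −log10 q of 2 or more gave 12 R848-only peaks, found at 7 of the 10 genes, and 4 untreated-only peaks. At 5 or more there were 2 and 0, the 2 at Cd44 and Cd69, and the shared share was 33.3%, from 3 R848 peaks. With the untreated list reduced to the length of the R848 list, R848-only peaks numbered 31, untreated-only peaks 4, and the shared share was 6.06%. Here 2311 of 10092 untreated peaks tied at the limit, a −log10 p of 4.17, were kept in file order. Untreated peaks of Cd44, Cd83 and Pdcd1lg2 were tied there and were left out by file order, not by strength. The values of this alternative therefore depend on that order. Within 20 kb of a gene end the R848-only count was 19 and the untreated-only count 4. Giving each peak to all genes whose span is within 50 kb, the counts were 43 and 17. The smaller counts follow from fewer peaks entering, and the 43 and 17 from more. The 31 R848-only peaks arose because some R848 peaks lost the untreated peak that overlapped them. A gap of 500 bp, an overlap of 50% and the gene holding the summit moved none of these 3 values by more than 1.5 times. In none of the 8 alternatives did any of the 10 genes have fewer R848-only than untreated-only peaks. At a −log10 q of 5 or more no untreated-only peak was left, so there it could not have come out otherwise. The gap, overlap and gene-holding alternatives counted nearly the same peaks again and are no separate check. No share of all genes is set beside the counts of any alternative. Single peaks of 5 to 17 tags limit the precision throughout. No paired analysis was possible because each group holds 1 library.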

Other observations

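Some peaks close to the 10 genes belong to neighbours by the nearest-end rule. Downstream of Icam1 the genes of its relatives Icam4 and Icam5 carried R848-only peaks of 8, 11 and 11 tags, 704, 2131 and 4588 bp beyond the Icam1 gene, and the untreated list had 1 peak at Icam5, of 5 tags, 10183 bp beyond it. In all, within 50 kb of Icam1, neighbours held 8 R848-only peaks of 6 to 11 tags and 5 untreated-only peaks of 5 to 7 tags, the other untreated ones being 26349 and 38022 bp beyond the gene and 17447 and 42204 bp before it. Beyond the Cd86 gene, 2 R848-only peaks of 11 tags each (5.49 to 19.7), 21414 and 43543 bp away, were assigned to Ildr1, and no untreated peak lay within 50 kb of Cd86 outside those already given. Near Cd80 the neighbours Adprh and Timmdc1 had shared peaks, with 13 and 20 tags in the R848 list and 12 and 8 tags in the untreated list, and Pla1a had 2 R848-only peaks of 5 and 7 tags and 1 untreated-only peak of 7 tags. No other R848 peak lay within 50 kb of Icosl, Cd83, Cd69 or Cd44, while the untreated list had 2 near Icosl, of 11 and 9 tags at 45796 and 45180 bp, and 1 near Cd69, of 6 tags.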
